A study of Rattus norvegicus with 6 samples.

Results

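The antioxidant and glutathione response governed by Nrf2 was examined in cultured rat heart muscle cells through 10 genes, namely Nfe2l2, Keap1, Hmox1, Gclc, Gclm, Txnrd1, Srxn1, Gsr, Prdx1 and Sod2. They were taken by name from the gene table, together with the 4 unannotated transcripts of the table that overlap one of them on its strand. The 10 annotated rows stand among 43035 rows in all, of which 15513 passed the filter on low counts and were tested, 7 of the 10 genes among them. The cells were cardiomyocytes from newborn Sprague-Dawley rats of postnatal day 1, enriched by differential attachment, kept in primary culture with 10% serum and collected 48 h after transfection. The control group (si-NC, 3 libraries) received a scrambled siRNA, and the other group (si-DYRK1A, 3 libraries) an siRNA against DYRK1A, a protein kinase. Both groups passed through lipid-based transfection, which is therefore shared by all libraries, and no untransfected cells were analysed here. Attachment enriches cardiomyocytes without sorting them, and the RNA of a library is a mixture of the cell types that remained. The study calls the 3 libraries of each group biological replicates, and whether they came from separate litters is not given in the sources used here.

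Nrf2, the product of Nfe2l2, is a transcription factor that Keap1 holds in the cytoplasm and hands over for degradation. When oxidants or electrophiles modify Keap1, Nrf2 accumulates, pairs with small Maf proteins and binds antioxidant response elements near its target genes. Its targets make and recycle glutathione, reduce thioredoxin and peroxiredoxins, and break down heme, and in the heart they are known for limiting damage from the oxidants that mitochondria release. Nrf2 is regulated largely at the level of protein stability, so that the mRNA of Nfe2l2 and Keap1 is not a measure of its activity.

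Where the promoters could be read, they are shown first, because antioxidant response elements are the sites through which Nrf2 acts. The genes were chosen as part of the Nrf2 response, so matches before them are not an independent result. RefSeq starts (build GRCr8, whereas the counts use Rnor_6.0) were matched by symbol for 8 of the 10 genes, with 9 start sites, since Txnrd1 has a pair of them. The 250 bases before each start were searched on both strands for the core of the antioxidant response element, TGACNNNGC, and for the AP-1 site, TGACTCA. A sequence such as that of Prdx1 can hold both at once, because the letters overlap. The core was found before at least one start of 4 genes (Gclm, Txnrd1, Prdx1 and Sod2), and the AP-1 site before those of Srxn1 and Prdx1. Of all 33469 windows of this length, 10.1% hold the core and 4.05% the AP-1 site. Nfe2l2, Keap1 and Gclc had neither in this window. The stretches of Txnrd1 and Prdx1 are shown because these genes differed between the groups, and that of Gclm because it holds the core and its gene was not called. Each is written 5′ to 3′ on the strand of its gene and ends at the base before the start, and capitals mark the matches.
Txnrd1, second start, chr7:22755905-22756154, minus strand, GRCr8: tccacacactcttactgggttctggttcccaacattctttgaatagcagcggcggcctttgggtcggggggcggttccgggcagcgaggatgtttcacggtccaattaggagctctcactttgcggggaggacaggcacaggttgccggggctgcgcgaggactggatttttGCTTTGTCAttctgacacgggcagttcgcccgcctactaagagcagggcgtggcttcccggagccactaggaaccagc
Prdx1, chr5:135383656-135383905, plus strand, GRCr8: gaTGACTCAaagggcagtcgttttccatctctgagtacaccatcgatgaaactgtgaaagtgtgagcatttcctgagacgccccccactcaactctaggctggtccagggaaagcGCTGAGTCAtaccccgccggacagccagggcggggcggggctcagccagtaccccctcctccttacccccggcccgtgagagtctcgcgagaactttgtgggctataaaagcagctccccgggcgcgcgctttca
Gclm, chr2:213031885-213032134, plus strand, GRCr8: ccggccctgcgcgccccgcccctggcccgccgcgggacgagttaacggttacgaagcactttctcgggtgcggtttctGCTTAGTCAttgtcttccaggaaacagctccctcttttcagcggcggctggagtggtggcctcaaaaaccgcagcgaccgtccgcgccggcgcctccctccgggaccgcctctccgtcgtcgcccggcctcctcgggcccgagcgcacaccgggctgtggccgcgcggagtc
All 4 matches to the core lie on the strand opposite to the gene. That of Txnrd1 covers bases 78 to 70 before the start, that of Prdx1 bases 135 to 127, that of Gclm bases 172 to 164 and that of Sod2 (GCAGGGTCA) bases 35 to 27. The match of Prdx1 contains an AP-1 site, and a second AP-1 site lies at bases 248 to 242. These matches describe the letters of the windows and do not show that a factor was bound there.

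Each library held 10325074 to 11921772 counts. Values are counts-per-million (CPM), scaled to the total of the library after adjustment by the TMM method of edgeR, and the groups were tested with edgeR (quasi-likelihood, Benjamini-Hochberg adjustment over all 15513 features tested). A log2 change is the log2 fold change of that fit, si-DYRK1A relative to si-NC, and a feature was called where its adjusted p was below 0.05. The p-values set the difference between the groups against the spread between the libraries within a group. Whether they carry over to other litters or cultures was not tested. In this fit 15.2% of the features were called, 8.02% with higher and 7.19% with lower levels under the si-DYRK1A label. The row of Dyrk1a, the targeted gene, held 3, 0 and 1 counts in si-NC replicates 1 to 3 and 2, 1 and 0 in the libraries under the si-DYRK1A label. An unannotated transcript that spans it held 777 to 971 counts per library. It had 77.5 ± 3.21 CPM (SD, n = 3) in si-NC and 82.2 ± 2.70 CPM (SD, n = 3) in the libraries under the si-DYRK1A label. Its log2 change was 0.08 (confidence interval -0.04 to 0.20, adjusted p = 0.374, edgeR). This transcript thus showed no fall under the si-DYRK1A label, and the counts do not bear out the labels. Whether its reads are those of Dyrk1a mRNA was not tested. The paper assessed the knockdown by immunoblotting for DYRK1A protein, which the counts cannot show. All directions below rest on the labels.

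Among the 10 genes, Txnrd1 and Prdx1, which encode enzymes of the thioredoxin system, were called lower in the libraries under the si-DYRK1A label, by 15.1% and 10.2%. None was called higher by edgeR or DESeq2, and none had an unadjusted p below 0.05 in that direction. Hmox1, Gclc, Gclm, Srxn1 and Sod2 were tested and not called, and Nfe2l2, Keap1 and Gsr had too few counts to be tested. Thus 2 of the 7 genes tested (28.6%) were called, against 15.2% of all features. The genes were chosen with earlier results of these data known, so this share is a description and not a test. The median log2 fold change of the 7 genes was -0.12, against 0.002 over all features tested, and 6 of the 7 values were negative. In such bulk libraries fewer cells of a type and less RNA per cell cannot be told apart.

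Nfe2l2, Keap1 and Gsr could not be tested. Nfe2l2 (ENSRNOG00000001548, chromosome 3 of Rnor_6.0, 62497571 to 62524996, minus strand) held 0 counts in every library. A count of 0 allows up to 3 counts, or 0.250 to 0.287 CPM depending on the library, which covers counting error only. An unannotated transcript with the same first and last base on the same strand held 1, 0 and 2 counts in si-NC replicates 1 to 3 and 1, 0 and 0 counts in the libraries under the si-DYRK1A label. Keap1 (ENSRNOG00000020878, chromosome 8, 22250518 to 22259779, minus strand), the adaptor that marks Nrf2 for degradation, also held 0 counts in every library. The unannotated transcript that spans it held 4, 4 and 5 counts in si-NC and 3, 7 and 1 in the libraries under the si-DYRK1A label. Gsr (ENSRNOG00000014915, chromosome 16, 62197617 to 62241361, minus strand), which returns oxidised glutathione to its reduced form with NADPH, had 0, 2 and 5 counts in si-NC and 1, 1 and 0 in the libraries under the si-DYRK1A label. The unannotated transcript covering 99.4% of Gsr held 0 counts in all libraries. With each gene and its covering transcript summed, the totals over the 6 libraries were 4 for Nfe2l2, 24 for Keap1 and 9 for Gsr.
All 3 genes without enough counts were thus covered by an unannotated transcript of their strand over more than 50% of their length, which held for none of the 7 genes tested. The same was seen beyond these genes, since among 86 rows of related genes 23 of the 27 rows not tested and 9 of the 59 rows tested were covered in this way. Of the related genes named below, Gstm1, Gsta4, Slc48a1, Abcc4 and Sqstm1 are among these 9, and whether this lowered their counts was not tested. Whether the covering transcripts lowered the counts of Nfe2l2, Keap1 and Gsr was not tested either, so that their counts say nothing firm on their expression. No difference between the groups was detectable from so few counts.

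Txnrd1 (ENSRNOG00000009088, chromosome 7, 26946125 to 26984400, minus strand) encodes cytosolic thioredoxin reductase, a selenoprotein that uses NADPH to keep thioredoxin reduced. Its levels were 391, 389 and 413 CPM in si-NC replicates 1 to 3 and 339, 334 and 339 CPM in replicates 1 to 3 of the libraries under the si-DYRK1A label. All 3 si-NC libraries lay above all 3 others, and the latter lay close together. The mean fell from 398 ± 13.2 CPM (SD, n = 3) to 338 ± 2.82 CPM (SD, n = 3), a log2 change of -0.24 (standard error, SE, 0.0424, 95% confidence interval -0.32 to -0.15, adjusted p = 0.000459, edgeR). An exact permutation test on the CPM values (two-sided) returned p = 0.1, the smallest that 3 libraries against 3 allow. The call held in all 16 alternative analyses, with a log2 fold change between -0.26 and -0.22.
Prdx1 (ENSRNOG00000017194, chromosome 5, 135536413 to 135551990, plus strand) encodes a cytosolic peroxiredoxin, which reduces hydrogen peroxide and is itself reduced by thioredoxin. It had 572, 565 and 601 CPM in si-NC replicates 1 to 3 and 533, 539 and 488 CPM in the libraries under the si-DYRK1A label. The groups did not overlap, although the gap between si-NC replicate 2 and replicate 2 of the other group was smaller than the range within either group. The mean was 579 ± 19.0 CPM (SD, n = 3) in si-NC and 520.0 ± 27.5 CPM (SD, n = 3) in the libraries under the si-DYRK1A label, a log2 change of -0.16 (SE 0.0454, 95% confidence interval -0.25 to -0.06, adjusted p = 0.0220, edgeR). The exact permutation test again gave p = 0.1. The call was lost without si-NC replicate 1 (adjusted p = 0.0576, edgeR), without si-NC replicate 3 (0.0582) and without si-DYRK1A replicate 3 (0.182), where the log2 fold change was -0.17, -0.14 and -0.11. It was also lost by limma on log2(FPKM + 1), with an adjusted p of 0.104. Txnrd1 and Prdx1 were the only genes of the 7 tested whose groups did not overlap, which 31.5% of all features did.
Srxn1 (ENSRNOG00000031167, chromosome 3, 147609095 to 147632801, plus strand) encodes sulfiredoxin, which restores peroxiredoxins that have been overoxidised. Its levels of 28.1, 22.1 and 28.9 CPM in si-NC overlapped those of 25.7, 21.4 and 23.8 CPM in the libraries under the si-DYRK1A label. With 228 to 346 counts per library it was the least counted of the genes tested, and its interval was the widest (log2 fold change -0.15, 95% confidence interval -0.38 to 0.07, adjusted p = 0.378, edgeR). A fall of the size seen for Txnrd1 lies within that interval.

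**Figure D1:**
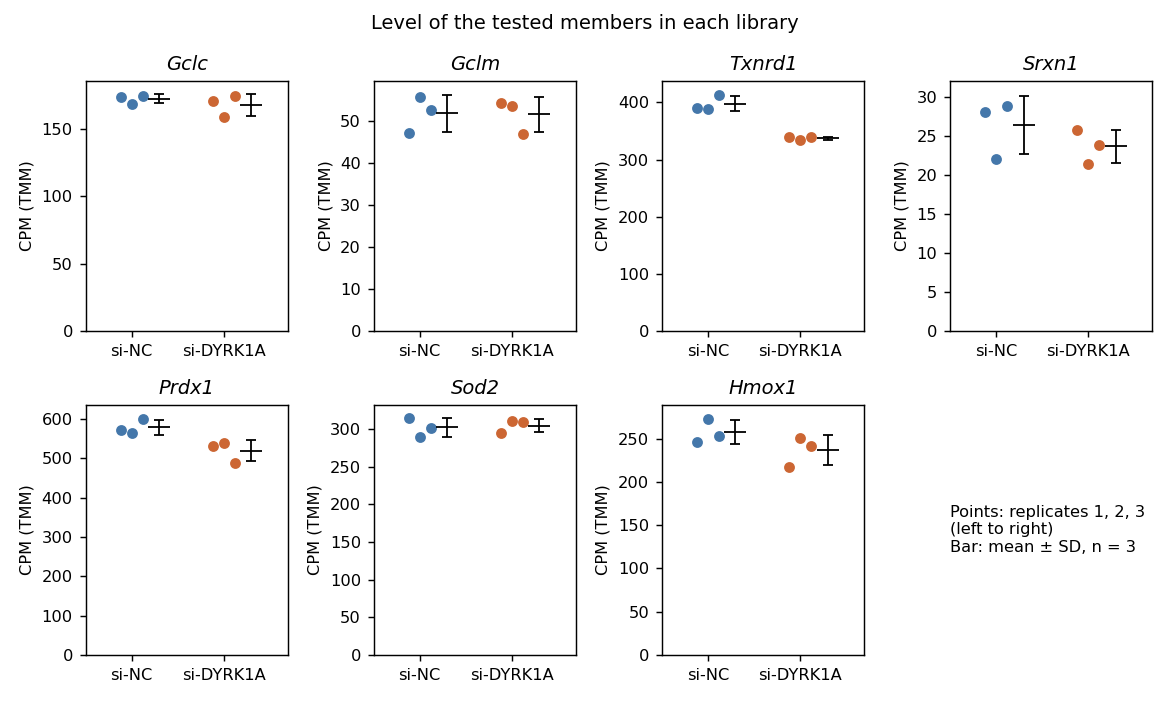
CPM (linear axes from 0) of the 7 genes tested in each library, with replicates 1 to 3 from left to right, si-NC in blue and the libraries under the si-DYRK1A label in orange, and the mean ± SD (n = 3) in black. The 2 groups are separate for Txnrd1 (389 to 413 against 334 to 339 CPM) and Prdx1 (565 to 601 against 488 to 539 CPM) and overlap for the other genes.

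Gclc and Gclm encode the catalytic and the modifier subunit of glutamate-cysteine ligase, the rate-limiting enzyme of glutathione synthesis. Gclc (ENSRNOG00000006302, chromosome 8, 85059051 to 85097468, plus strand) had 173, 168 and 174.5 CPM in si-NC and 170.2, 158 and 174 CPM in the libraries under the si-DYRK1A label. The groups overlapped, although si-DYRK1A replicate 2 lay below every si-NC library, and the log2 fold change was -0.04 (95% confidence interval -0.14 to 0.06, adjusted p = 0.668, edgeR). Gclm (ENSRNOG00000013409, chromosome 2, 225827504 to 225847874, plus strand) had 47.0, 55.6 and 52.5 CPM in si-NC and 54.2, 53.5 and 46.7 CPM in the libraries under the si-DYRK1A label. Its log2 fold change was -0.01 (95% confidence interval -0.17 to 0.15, adjusted p = 0.964, edgeR), and the change of Prdx1 lies within that interval. An unannotated transcript over 46.9% of Gclm added 29 counts in all libraries to its 3508.
Sod2 (ENSRNOG00000019048, chromosome 1, 47914759 to 47921587, minus strand) encodes the manganese superoxide dismutase of mitochondria. It had 315, 290.1 and 301 CPM in si-NC and 295, 311 and 309 CPM in the libraries under the si-DYRK1A label, and its log2 fold change of 0.01 had a 95% confidence interval of -0.08 to 0.11 (adjusted p = 0.897, edgeR). The fall of Txnrd1 lies outside that interval, while the difference between the genes was not tested. Hmox1 (ENSRNOG00000014117, chromosome 19, 14508616 to 14515456, plus strand) encodes heme oxygenase 1, which opens the heme ring and releases iron, carbon monoxide and biliverdin. Its levels were 246, 273 and 253.5 CPM in si-NC and 217.5, 251 and 241.5 CPM in the libraries under the si-DYRK1A label. The libraries overlapped, since replicate 2 of the latter lay above si-NC replicate 1. The log2 fold change was -0.12 (SE 0.0541, 95% confidence interval -0.23 to -0.01), with an unadjusted p of 0.0358 and an adjusted p of 0.147 by edgeR. Hmox1 thus did not pass the threshold, and it did not in any of its 16 alternatives, where the adjusted p lay between 0.0663 and 0.522.

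**Figure D2:**
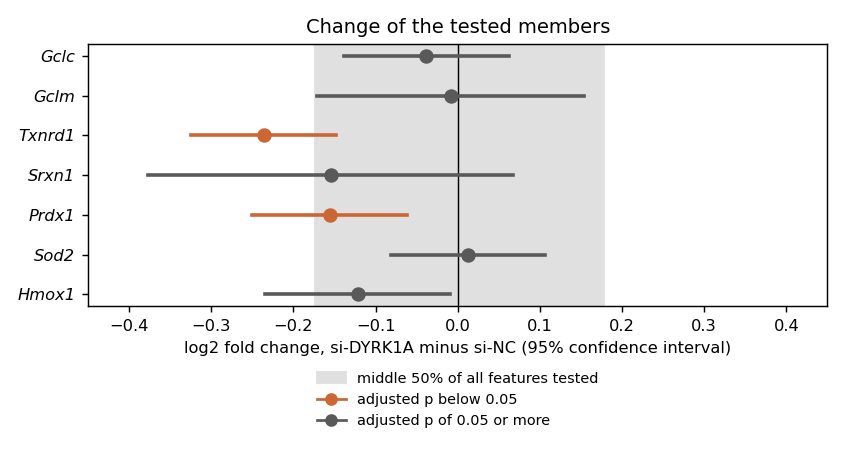
Log2 fold change (points) with its 95% confidence interval (lines) of the 7 genes tested, libraries under the si-DYRK1A label relative to si-NC, on a linear axis. The grey band holds the middle 50% of all 15513 features, from -0.17 to 0.18, and only the value of Txnrd1 (-0.24) lies outside it.

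To compare levels between genes, the FPKM values of the authors were used, which divide counts by the length of the gene. In the si-NC libraries Prdx1 was highest with 649 ± 21.1 FPKM (SD, n = 3), followed by Hmox1 with 164 ± 9.24, Sod2 with 146 ± 5.67 and Txnrd1 with 116 ± 3.83. Gclc had 56.3 ± 0.962, Srxn1 35.9 ± 4.97 and Gclm 34.7 ± 3.04 FPKM (SD, n = 3). Each gene lay below the one before it in all si-NC libraries except Gclm, whose 31.4 to 37.4 FPKM overlapped the 30.2 to 39.3 FPKM of Srxn1. The FPKM of the catalytic subunit of glutamate-cysteine ligase thus exceeded that of its modifier in every si-NC library. An unannotated transcript overlaps 46.9% of Gclm and none overlaps Gclc, and whether this lowered the counts of Gclm was not tested. In the libraries under the si-DYRK1A label, Hmox1 (137.9 to 159 FPKM) and Sod2 (142 to 149.8 FPKM) overlapped, and Prdx1 stayed highest with 581 ± 31.1 FPKM (SD, n = 3).

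A further 87 genes of the same pathways were read from the fit, in 7 lists that hold none of the 10 genes. Of these, 84 were matched to 86 rows, and 59 rows were tested. By edgeR 24 of the 59 (40.7%) were called, against 15.2% of all features, with 18 lower and 6 higher in the libraries under the si-DYRK1A label. The lists were chosen with earlier results of these data known, so this share is a description and not a test. The 15.2% covers features at all levels above the filter, and no share among features of similar level was computed. The median log2 fold change of the 59 was -0.12, against 0.002 over all features. The groups did not overlap for 32 of the 59 rows, against 31.5% of all features. Among the fits that left a library out, the count of called genes was lowest without si-DYRK1A replicate 3, at 16 (14 lower and 2 higher). In those fits 13 of the 24 calls held whichever library was left out, 12 of them lower and 1 higher. Over all 16 alternative analyses, 6 of the 24 calls held.
In the list of glutathione synthesis and reduction, 5 of 11 tested genes were called lower, 2 higher and 4 neither, with a median log2 fold change of -0.30. Slc7a11, the cystine carrier that brings in the precursor of cysteine, had 87.0, 84.5 and 86.1 CPM in si-NC and 68.9, 54.9 and 59.4 CPM in the libraries under the si-DYRK1A label. All libraries of the latter were lower, with a log2 change of -0.49 (SE 0.0706, adjusted p = 5.24e-05, edgeR). Its partner chain Slc3a2, which also serves other amino acid carriers, fell by 0.17 on the log2 scale (adjusted p = 0.00814, edgeR). Gss, glutathione synthetase, which adds glycine in the last step of synthesis, fell from 102 ± 4.58 to 82.9 ± 4.59 CPM (SD, n = 3), a log2 change of -0.29 (adjusted p = 0.00112, edgeR).
The largest change in this list was that of Chac1, an enzyme that degrades glutathione. It had 54.4, 53.7 and 45.4 CPM in si-NC and 27.8, 28.7 and 28.5 CPM in the libraries under the si-DYRK1A label, a log2 change of -0.85 (SE 0.0824, adjusted p = 2.79e-07, edgeR). Oplah, which turns 5-oxoproline from glutathione breakdown back into glutamate, had a log2 change of -0.33 (adjusted p = 0.00499, edgeR). The glutaredoxins Glrx3 and Glrx5, which serve iron-sulfur cluster proteins, were called higher with 0.17 each (adjusted p = 0.0153 and 0.0164, edgeR). Glrx, the cytosolic glutaredoxin that reduces glutathione-bound proteins, had a log2 change of -0.01, Chac2 of -0.30 and Ggt5 of -0.48, and none of these passed the threshold (adjusted p = 0.970, 0.119 and 0.170, edgeR).

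Among glutathione peroxidases and transferases, 6 of 13 tested genes were called lower, none higher and 7 neither by edgeR. DESeq2 called 4 lower and none higher, and 1 gene, Gsta3, chosen after its values were seen, was higher at an unadjusted p of 0.0272 (edgeR, adjusted p = 0.123) from 4 to 29 counts per library. Gpx1, the main cytosolic glutathione peroxidase, had 184 ± 4.13 CPM (SD, n = 3) in si-NC and 164 ± 3.66 CPM (SD, n = 3) in the libraries under the si-DYRK1A label (log2 fold change -0.17, adjusted p = 0.0153, edgeR). Gpx7, of the endoplasmic reticulum, had a log2 change of -0.23 and Mgst1, a membrane-bound transferase, of -0.29 (adjusted p = 0.00179 and 0.00260, edgeR). Gstt1 fell from 13.9 ± 0.917 to 8.50 ± 0.928 CPM (SD, n = 3), a log2 change of -0.70 (adjusted p = 0.000903, edgeR). Gstm1 (-0.33, adjusted p = 0.0266) and Gstm7 (-0.66, adjusted p = 0.0349, edgeR) were called lower as well, but the Gstm genes are near copies of each other and their counts are uncertain, as are those of the Gsta genes. Gpx3, the secreted peroxidase and the most abundant gene of the list at 1263 CPM in si-NC, had a log2 change of 0.01 with a 95% confidence interval of -0.07 to 0.10. Gstp1 had a log2 change of -0.12 and Gsta4 of -0.15, and neither passed the threshold (adjusted p = 0.0802 and 0.244, edgeR).
In the rest of the thioredoxin system, 2 of 9 tested genes were called lower, 1 higher and 6 neither. Txnip, which binds reduced thioredoxin and inhibits it, had 507, 517 and 504 CPM in si-NC and 305, 327 and 299 CPM in the libraries under the si-DYRK1A label, a log2 change of -0.72 (adjusted p = 5.22e-10, edgeR). Txnrd3, a thioredoxin reductase that also acts on glutathione, had a log2 change of -0.38 (adjusted p = 0.0110, edgeR). The mitochondrial reductase Txnrd2 had one of -0.03 (adjusted p = 0.897, edgeR). Prdx4, the peroxiredoxin of the secretory pathway, went the other way from Prdx1, with 233, 230.5 and 252 CPM in si-NC and 266, 264 and 269 CPM in the libraries under the si-DYRK1A label. Its log2 fold change was 0.16 (adjusted p = 0.0222, edgeR). Prdx3 (-0.02), Prdx6 (-0.02) and Txn2 (0.04), the mitochondrial thioredoxin, were not called.
Of the superoxide dismutases and catalase, Cat was called lower and the 3 other tested genes were not. Cat, which breaks down hydrogen peroxide in peroxisomes, had 164, 171 and 172 CPM in si-NC and 152, 145 and 136 CPM in the libraries under the si-DYRK1A label (log2 fold change -0.22, adjusted p = 0.00353, edgeR). Sod1 had a log2 change of 0.003, Sod3 of -0.04 and Ccs of -0.09.

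In the list of heme breakdown and iron storage, Blvra, which reduces the biliverdin that heme oxygenase makes, was called lower. It had 49.0, 52.4 and 51.2 CPM in si-NC and 38.9, 40.1 and 36.1 CPM in the libraries under the si-DYRK1A label, a log2 change of -0.41 (adjusted p = 0.000443, edgeR). Slc40a1, the iron exporter, was called higher with 0.38 (adjusted p = 0.0212, edgeR), from 144 to 203 counts per library. A second row of Slc40a1 held 0 counts in every library and was covered by an unannotated transcript. DESeq2 called 2 genes of this list lower and none higher. Blvrb (-0.09), Fech (-0.16) and Slc48a1 (-0.12) were not called. The list of NADPH supply and quinone reduction was mixed, with 2 genes called higher, 3 lower and 7 neither. Nqo1, the quinone reductase often used to read out Nrf2, had 80.9, 81.2 and 106.9 CPM in si-NC and 137, 134 and 142 CPM in the libraries under the si-DYRK1A label. The groups did not overlap, with a log2 change of 0.62 (SE 0.113, 95% confidence interval 0.35 to 0.89, adjusted p = 0.0142, edgeR), although si-NC replicate 3 stood above the other two. Nqo1 is also a textbook target of the aryl hydrocarbon receptor, and the part of either regulator in its change was not tested.
The other gene called higher was Ephx1, an epoxide hydrolase and not a source of NADPH, with 152 ± 1.36 and 209 ± 1.61 CPM (SD, n = 3) and a log2 change of 0.45 (adjusted p = 2.90e-07, edgeR). The lower genes were Idh1, which makes NADPH in the cytosol (-0.15, adjusted p = 0.0324, edgeR), Abcc4, an exporter of organic anions (-0.43, adjusted p = 0.00813, edgeR), and Osgin1. Osgin1, a gene induced by oxidants, had 6.22, 5.91 and 6.09 CPM in si-NC and 2.98, 2.82 and 2.94 CPM in the libraries under the si-DYRK1A label, from 30 to 73 counts per library, and a log2 change of -1.06 (adjusted p = 0.000759, edgeR). The pentose phosphate enzymes Tkt (0.11) and Taldo1 (0.01) were not called (adjusted p = 0.109 and 0.914, edgeR). Of 10 further regulators of Nrf2, 6 had too few counts to be tested and 4 were tested. All 6, and 2 of the 4 including Sqstm1, were covered by an unannotated transcript. None of the 4 tested regulators was called by edgeR or by DESeq2, and none had an unadjusted p below 0.05 by either. With limma-voom 1 of them was lower at an unadjusted p below 0.05, and none was called. Rbx1, of the ligase that Keap1 recruits, had a log2 change of -0.01, Gsk3b of -0.10 and Sqstm1 of -0.41, the last from 45 to 88 counts per library.

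**Figure D3:**
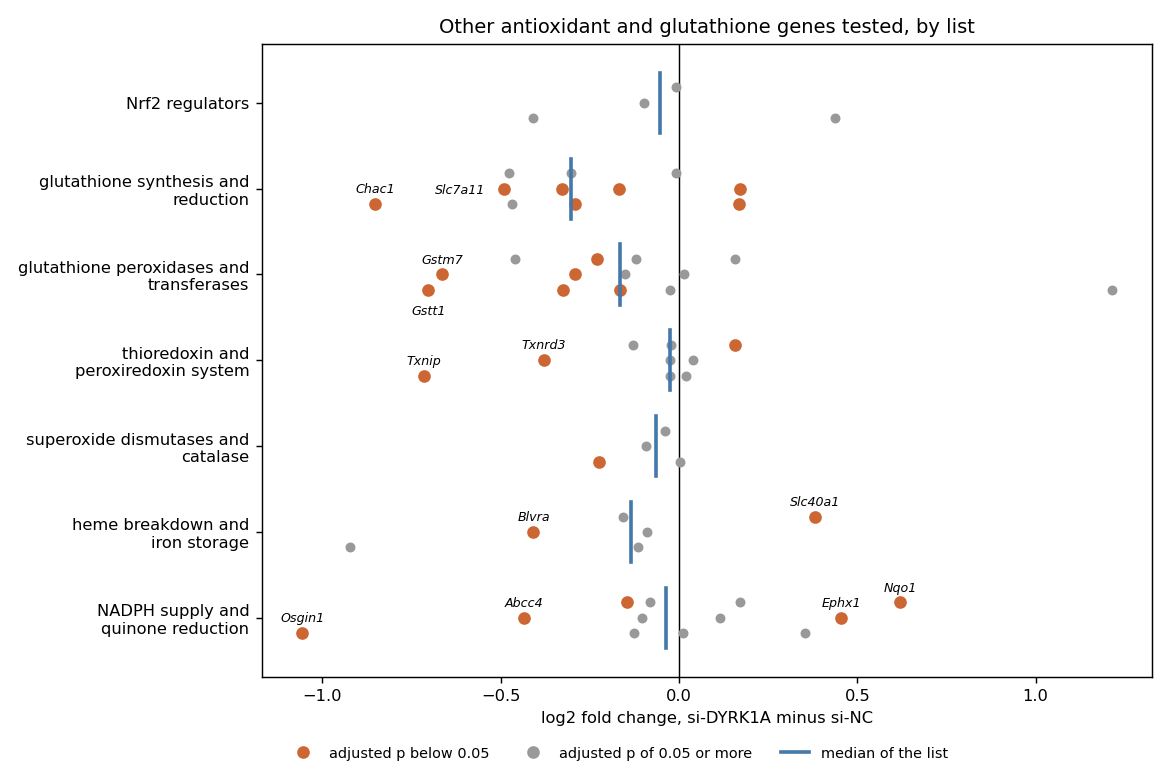
Log2 fold change (linear axis, libraries under the si-DYRK1A label relative to si-NC) of the 59 tested rows in 7 lists of related genes, with called genes in orange, the others in grey and the median of each list as a blue line. The medians run from -0.30 for glutathione synthesis and reduction to -0.02 for the thioredoxin and peroxiredoxin system, and Nqo1 (0.62) and Ephx1 (0.45) lie farthest to the right among called genes.

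Of the 24 called genes, 11 lost the call without at least one library (adjusted p, edgeR). Txnrd3 and Abcc4 lost it without si-DYRK1A replicate 3 only (0.0538 and 0.0679), and Gpx1 and Nqo1 without si-DYRK1A replicate 1 (0.0668 and 0.0765) or 3 (0.0598 and 0.0595). Glrx3 lost it without si-NC replicate 1 (0.0737), si-NC replicate 2 (0.0523) or si-DYRK1A replicate 1 (0.0933). For Gstm1 these were si-NC replicate 2 (0.130), si-DYRK1A replicate 1 (0.0957) and si-DYRK1A replicate 2 (0.109). For Glrx5 they were si-NC replicates 1 (0.0518) and 3 (0.0770) and si-DYRK1A replicates 2 (0.112) and 3 (0.0734). For Idh1 they were si-NC replicates 1 (0.125) and 3 (0.0620) and si-DYRK1A replicates 2 (0.170) and 3 (0.107). Slc40a1 lost it without si-NC replicate 2 (0.0981) or any one of si-DYRK1A replicates 1 (0.0673), 2 (0.0633) and 3 (0.0733). Prdx4 and Gstm7 kept it only where si-NC replicate 3 was the library left out, and otherwise lost it, with adjusted p from 0.0595 to 0.112 and from 0.0581 to 0.139.

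The cell types of the culture were read from lists of marker genes, to be set against the 15.2% of all features called. Of 9 cardiomyocyte markers, 6 had fewer than 10 counts in every library, with Tnni3, Myh6, Myh7 and Myl2 at 0, and all 6 were covered by an unannotated transcript. Of the 3 tested, 2 were called higher (edgeR). The other, Tnnt2, had a log2 change of -0.14 and was not called (adjusted p = 0.595, edgeR). It held 111 to 148 counts per library and was covered by an unannotated transcript too. The summed level of the list, nearly all from Actc1 and Nppa, was 17200 to 17790 CPM in si-NC and 20030 to 20990 CPM in the libraries under the si-DYRK1A label. For the 6 matched fibroblast markers, of which Pdgfra was at 0 and 2 of 5 tested were called higher, the sum was 21380 to 26100 and 20220 to 20960 CPM. For the 5 matched endothelial markers, of which 2 were called lower, it was 118 to 138 and 108 to 112 CPM. For the 8 macrophage markers, of which Cd68 was at 0 and 2 of 7 tested were called higher, it was 224.5 to 231 and 233 to 266 CPM. The 2 tested smooth muscle markers were not called by edgeR or DESeq2 (1 of them at an unadjusted p below 0.05 by edgeR), with sums of 554 to 561 and 543 to 567 CPM, with Myh11 and Acta2 at 0. Like the 6 cardiomyocyte markers, Pdgfra, Cd68, Myh11 and Acta2 were covered by an unannotated transcript, so their counts of 0 say nothing firm on expression. The 2 tested erythroid rows, both Hba-a2, were not called by either (1 of them at an unadjusted p below 0.05 by edgeR), and the sum of that list was 21.5 to 35.2 and 25.7 to 40.7 CPM. The sums of cardiomyocyte, fibroblast, endothelial and macrophage markers did not overlap between the groups, and their part in the changes of Txnrd1, Prdx1 and the related genes was not tested. A sum does not stand for its whole list. Of the fibroblast markers tested, only Col1a1 was lower (mean 14310 in si-NC and 11090 CPM in the other group, not called), while Lum and Postn were called higher. Of the 7 macrophage markers tested, Lyz2 (88.6 and 117.5 CPM) and Cd163 were called higher. Postn (71 to 182 counts per library) and Cd163 (43 to 116) were covered by an unannotated transcript too. Whether this lowered their counts was not tested, so their changes are uncertain. Ptprc, Csf1r and Adgre1 were lower and not called.

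**Figure D4:**
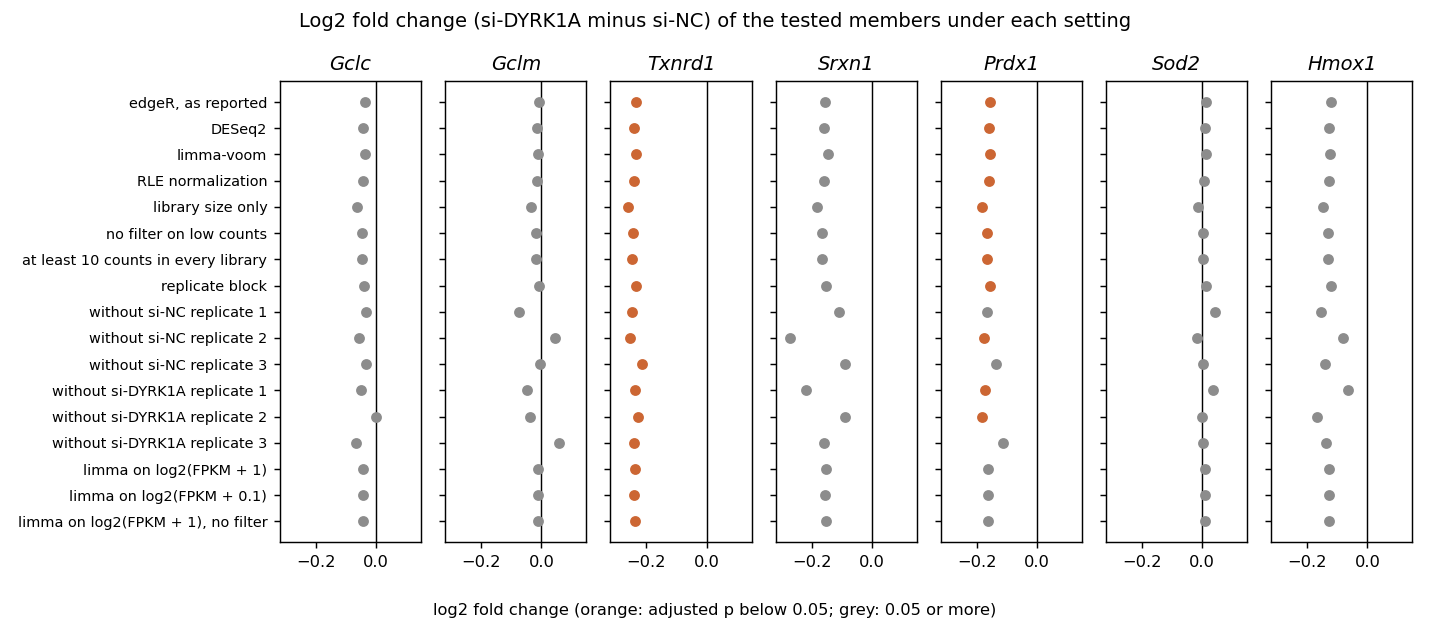
Log2 fold change of the 7 genes tested (linear axis, libraries under the si-DYRK1A label relative to si-NC) as reported and under 16 alternative analyses, in orange where the adjusted p was below 0.05. Txnrd1 lies between -0.26 and -0.22 and is called throughout, Prdx1 lies between -0.18 and -0.11 and is called in 10 of 16, and the other genes are not called under any of them.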

How the data were processed

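RNA-seq libraries of 3 si-NC and 3 si-DYRK1A cultures were grouped and numbered from the sample labels. Reads were aligned by the authors to Rnor_6.0 (HISAT2), and raw counts per gene were deposited without normalization. They also deposited FPKM values, which equal the count divided by gene length times one constant per library. For the counting tool, annotation release and strand setting, the sources used here give nothing. The submitters' processing notes name Bowtie 0.12.2 and mm8, a mouse build, whereas the identifiers in the table are those of rat genes. No genome was used, and promoters came from RefSeq (GRCr8).

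Groups were tested with edgeR 4.0.16 under R 4.3.3 (quasi-likelihood) with TMM, a robust fit and the filterByExpr filter, and p-values were two-sided. Alternatives were DESeq2 1.42.0, limma 3.58.1 (voom, or log2(FPKM + 1) and log2(FPKM + 0.1) where 3 or more libraries exceeded 0.5 FPKM, the former also unfiltered), RLE or library-size scaling, other count filters, a replicate block, and leaving out each library. Fits were tested on simulated counts. Libraries held 10325074 to 11921772 counts, which bears on the precision of genes with few counts, and precision also depends on the spread between libraries. The genes named were the 10 genes, every called gene of the 7 lists and the 3 most abundant uncalled genes of each by mean FPKM over the 6 libraries. Outside that rule, Txnrd2, Gsta3 and single markers were named after their values were seen. Genes and lists were chosen with earlier results of these data known. Gstm2, Pgd and Akr1b8, and the markers Col1a2, Pecam1 and Hba-a1, were matched to no row and not analysed here. Some items that the rule would name are not reported here.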

Additional observations from a re-analysis of the deposited data

How the results depend on the processing

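The number of features called was 2359 in the reported fit and 1610 to 2210 when any one library was left out. It was 1199 with limma on log2(FPKM + 1), 1180 on log2(FPKM + 0.1) and 591 on log2(FPKM + 1) without filtering. Of the 10 genes, 2 were called as reported, 1 to 2 with a library left out, and 1 (Txnrd1) on each of these 3 FPKM scales. Of the related genes, 24 were called as reported, 16 to 23 with a library left out, and 15, 15 and 7 on the 3 FPKM scales in the same order. The cause of the lower counts was not tested. DESeq2 called 1575 features, 2 of the 10 genes and 21 related genes. Values that were not called changed sign in some settings. Sod2 turned to -0.0134 with library size only, and with a library left out its log2 fold change ran from -0.0185 to 0.0428, that of Gclm from -0.0733 to 0.0570 and that of Gclc from -0.0665 to 0.000476. Summing genes with covering transcripts left Nfe2l2, Keap1 and Gsr below the filter and gave no value. The sum for Gclm, chosen after seeing the data, kept its sign and was not called. Same-numbered libraries deviated from their group means with correlations of 0.068, -0.022 and -0.009, and not every library correlated best with its own number, so the numbers were not treated as pairs. With the replicate block 2269 features, 2 of the 10 genes and 24 related genes were called, and Idh1 was not (adjusted p = 0.0538, edgeR). Nfe2l2, Keap1 and Gsr, with 0 to 5 counts per library in their own rows, could not be tested. Whether the transcripts that cover them lowered these counts was not tested.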
